A study of Mus musculus with 6 samples.

Results

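The 9 genes described here mark neutrophils by what they carry on the surface or in their granules. They were chosen by name: Fpr1, Fpr2, Trem1, Mrgpra2a, Mrgpra2b and Itgam encode surface receptors, and Ngp, Ltf and Retnlg encode granule or secreted proteins. All 9 symbols were found among the 34590 gene symbols of the count files. RNA was sequenced from skin biopsies of 3 Tnip1-/- mice and 3 Tnip1+/+ mice on the C57BL/6 background. All mice, of either genotype, are labelled as having had imiquimod, a Toll-like receptor agonist that causes psoriasis-like inflammation, applied to the skin for 2 days. Tnip1 encodes ABIN1, a protein that binds ubiquitin chains and works with A20 to dampen inflammatory signalling. The labels give the genotype alone, without the part of Tnip1 that was deleted, and no age of the mice; untreated skin was not analysed here.

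Neutrophils enter inflamed skin from the blood, guided by receptors for bacterial peptides and chemokines and held at the vessel wall by integrins. Their granule proteins are made mostly in the bone marrow, while the cell matures, so transcripts of specific granule genes are highest in immature cells and low in circulating ones. Surface receptors such as Fpr1 and Trem1 are transcribed in mature neutrophils and, to differing degrees, in monocytes and macrophages. Psoriatic epidermis is known for collections of neutrophils under the horny layer.

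Gene counts summed to 19529970 to 25864730 in the Tnip1-/- libraries and 24701074 to 31005554 in the Tnip1+/+ libraries. Levels are given as CPM, counts relative to library size after scaling with TMM factors, and a library with 3 counts of a gene stands at 0.0900 to 0.157 CPM. Tnip1 itself had 47, 37 and 35 counts in Tnip1-/- skin, against 938, 739 and 703 counts in Tnip1+/+ skin (log2 fold change -3.87 with an SE of 0.16, adjusted p = 5.87e-05, edgeR quasi-likelihood test). The library codes in the labels form a separate block for each genotype, with IMQ in the Tnip1+/+ codes and NORM in the Tnip1-/- codes, so any difference in handling between the blocks and the genotype cannot be told apart. Groups were taken from the genotype and treatment labels, which give imiquimod for all libraries. What the codes stand for is not stated, and if they marked treatment, every difference below would be one of treatment as well as genotype. Of the 8 neutrophil markers listed, 7 were tested and all of these rose, beside 22.3% of all tested genes. Of the 7, 2 (Camp and Stfa2l1) were testable only through the Tnip1-/- libraries. The summed level of the 8 markers was 7409 to 12053 CPM in Tnip1-/- skin against 28.2 to 164 CPM in Tnip1+/+ skin. Nearly all of that sum is S100a8 and S100a9, which stressed keratinocytes also express. Ly6g, the marker that best defines mouse neutrophils, had 9, 0 and 4 counts in Tnip1-/- skin and 0 counts in each Tnip1+/+ library, so the groups overlapped and it was too low to test.

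Within this set, 8 genes were higher in Tnip1-/- skin and the integrin gene Itgam was not called. The increases fell into separate ranges of size. Trem1, both Mrgpra2 genes, Ngp, Ltf and Retnlg rose by 3.16 to 4.76 on the log2 scale, whereas Fpr1 and Fpr2 rose by 1.05 and 0.83. Across all 16691 tested genes, 22.3% were called higher (edgeR, adjusted p under 0.05) and 22.7% lower, and 2.86% were called higher by at least 2 on the log2 scale. With library totals in place of TMM factors, 34.1% of all calls were higher instead of 49.6%. Of the 9 genes, 5 (Trem1, Mrgpra2a, Mrgpra2b, Ngp and Ltf) passed the filter on low counts only with the help of the Tnip1-/- libraries. Mrgpra2a, Mrgpra2b, Ngp and Ltf were over its cut in 0 Tnip1+/+ libraries, so that they had to be higher in Tnip1-/- skin to be tested. Trem1 was over it in 2 Tnip1+/+ libraries. The count of 8, and the gap in size to Fpr1 and Fpr2, are therefore no support on their own. Among the genes with the larger increases, only Retnlg passed the filter on the Tnip1+/+ libraries alone. In bulk skin, fewer cells of a type and less RNA per cell cannot be told apart, and this holds for every level below.

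**Figure D1:**
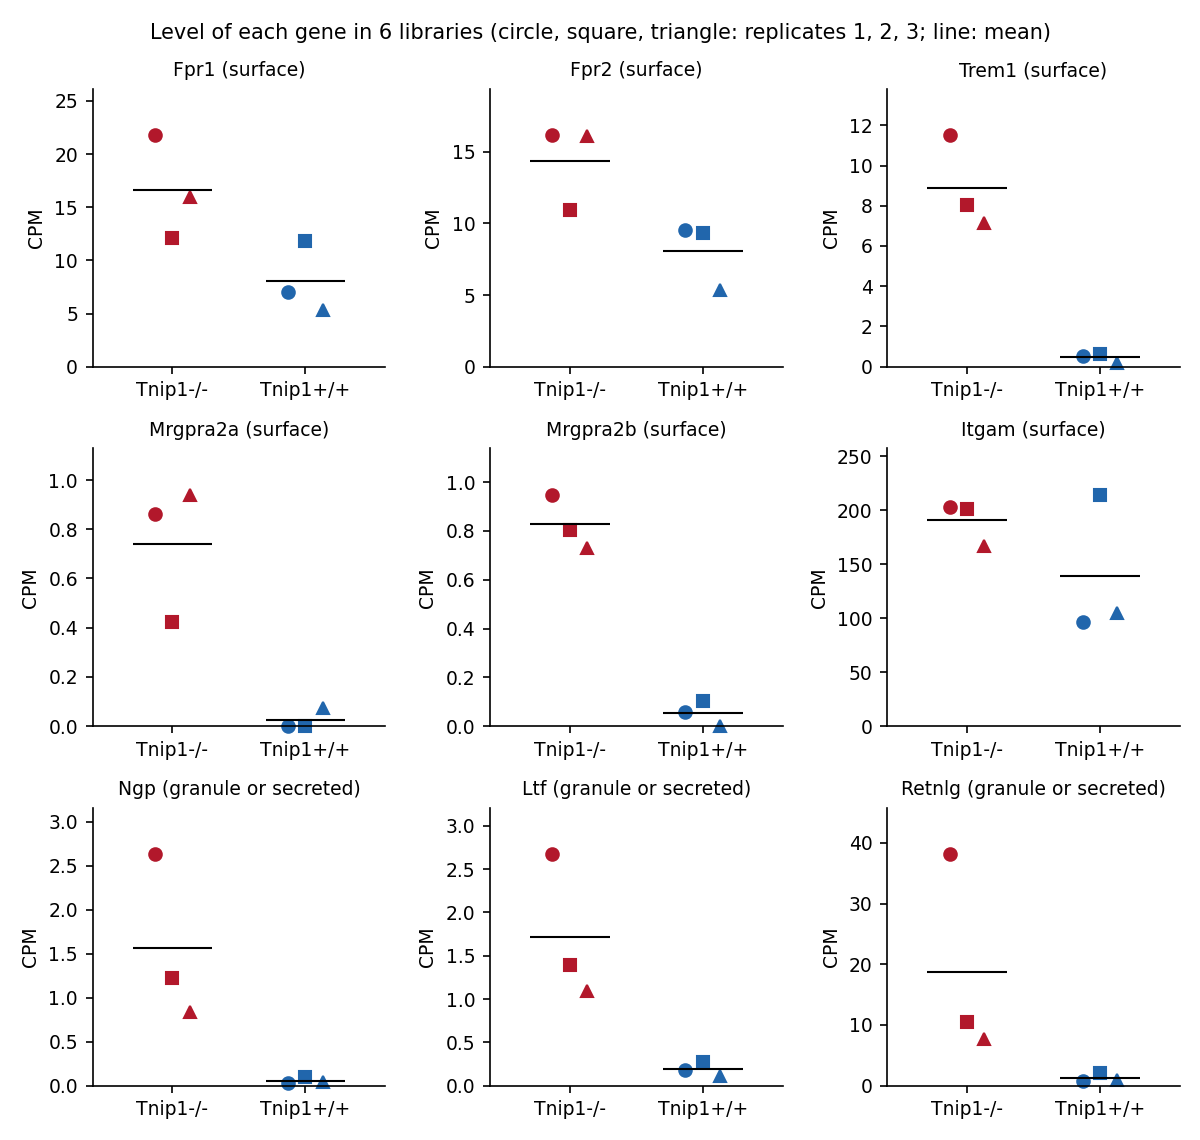
Level of each gene (CPM, axes from 0 and scaled per gene) in the 3 Tnip1-/- libraries, red, and the 3 Tnip1+/+ libraries, blue, with the group mean as a line. The groups are separate for 8 genes, and for Itgam the Tnip1+/+ replicate 2 library (214 CPM) lies above all Tnip1-/- libraries.

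Fpr1 and Fpr2 encode G protein-coupled receptors for formylated peptides, which bacteria and damaged mitochondria release. Fpr1 stood at 21.8, 12.1 and 16.0 CPM in Tnip1-/- skin, against 6.99, 11.8 and 5.29 CPM in Tnip1+/+ skin. The lowest Tnip1-/- library lay just above the highest Tnip1+/+ library, so the groups were separate by a narrow margin. The means were 16.6 ± 4.85 and 8.02 ± 3.37 CPM (SD, n = 3 each), and the log2 fold change was 1.05 (SE 0.34, adjusted p = 0.0399, edgeR quasi-likelihood test). Fpr2, which also binds serum amyloid A and annexin A1, stood at 16.2, 10.9 and 16.1 CPM in Tnip1-/- skin, against 9.57, 9.35 and 5.37 CPM in Tnip1+/+ skin. Here too the groups did not overlap, which held in this direction for 29.2% of all tested genes and in the opposite direction for 30.5%. Its log2 fold change was 0.83 (SE 0.27, adjusted p = 0.0405, same test). Both calls were close to the threshold and depended on single libraries. Fpr1 lost its call without Tnip1-/- replicate 1 or 3 (0.81 and 1.09) and without Tnip1+/+ replicate 1 or 3 (0.97 and 0.84). Fpr2 lost it without Tnip1-/- replicate 1 or 3 (0.74 and 0.75), without Tnip1+/+ replicate 2 or 3 (0.94 and 0.62) and with library totals alone (0.68). The remaining formyl peptide receptor symbols were at or near 0: Fpr-rs3, Fpr-rs4 and Fpr-rs7 had 0 counts in all libraries, and Fpr3 and Fpr-rs6 had 1 count each, in Tnip1-/- skin. Fpr1 and Fpr2 transcripts shared 68.6% of aligned bases and no 100-base stretch (the read length), so a read of that length from 1 gene differs from the other.

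Trem1 encodes an immunoglobulin-like receptor that amplifies inflammatory signals through the adaptor Tyrobp. It stood at 11.5, 8.05 and 7.16 CPM in Tnip1-/- skin (267, 190 and 137 counts), against 0.540, 0.646 and 0.185 CPM in Tnip1+/+ skin (18, 19 and 5 counts). The groups lay far apart, with no overlap. The log2 fold change of Trem1 was 4.25, with an SE of 0.42 (adjusted p = 8.33e-04, edgeR quasi-likelihood test), and it was 3.91 to 4.56 with any single library left out. In the same gene family, Trem3 rose by 3.35, Trem2, a receptor of macrophages, by 2.41, and Treml4 by 2.12, while Treml2 stood at 0.30 (adjusted p = 0.611, edgeR). These relatives were named after their values were seen.

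Mrgpra2a and Mrgpra2b encode receptors found on mouse neutrophils that respond to beta-defensins made by keratinocytes. The genes are near-identical copies on chromosome 7. Their transcripts in GENCODE M21 matched at 1233 of 1236 aligned bases, and 837 of the 1141 stretches of 100 bases in Mrgpra2a occur unchanged in Mrgpra2b. Reads from such stretches cannot be assigned to 1 copy, so the counts of each copy are uncertain. The promoters show the same: in RefSeq (GRCm38.p6) all 300 bases around the start, 250 before it and 50 after, are identical. The 250 bases before the start of Mrgpra2a, on the minus strand at chr7:47452165-47452414, are printed here as the sequence that both copies share, and those of Mrgpra2b lie at chr7:47489583-47489832 on the minus strand. Capitals would mark a base that differs between the copies, and there is none.
Mrgpra2a: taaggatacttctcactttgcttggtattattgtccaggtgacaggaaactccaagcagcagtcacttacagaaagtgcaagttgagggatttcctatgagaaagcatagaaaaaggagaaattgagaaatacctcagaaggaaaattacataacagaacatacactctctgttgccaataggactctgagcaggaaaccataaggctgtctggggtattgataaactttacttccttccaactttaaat

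Counts were low for both copies. Mrgpra2a had 20, 10 and 18 counts in Tnip1-/- skin, against 0, 0 and 2 counts in Tnip1+/+ skin. Mrgpra2b had 22, 19 and 14 counts in Tnip1-/- skin, against 2, 3 and 0 counts in Tnip1+/+ skin. The 0 counts fell in different Tnip1+/+ libraries for the 2 copies. Summed over the pair, which removes the split between copies, there were 42, 29 and 32 counts in Tnip1-/- skin and 2, 3 and 2 counts in Tnip1+/+ skin. That is 1.57 ± 0.304 CPM and 0.0787 ± 0.0214 CPM (SD, n = 3 each), a ratio of 20.0 with an exact 95% interval of 9.38 to 51.1 that covers counting error only. For the single copies the ratios of summed counts were 32.7 (interval 8.56 to 277) for Mrgpra2a and 15.0 (interval 6.04 to 47.9) for Mrgpra2b. Each passed the edgeR test, Mrgpra2a at a log2 fold change of 4.76 (SE 0.82, adjusted p = 0.00472) and Mrgpra2b at 3.79 (SE 0.58, adjusted p = 0.00321). The size for Mrgpra2a rests on 2 counts in Tnip1+/+ replicate 3. Without that library the fit gave 7.26, but only 0 counts were then left in Tnip1+/+ skin, so this is not a measured size. Mrgpra2b was at 4.47 without Tnip1+/+ replicate 2. None of the other Mrgpra symbols followed: Mrgpra3, Mrgpra6 and Mrgpra9 had 0 counts throughout, Mrgpra1 had 0 counts in Tnip1-/- skin and 2 in Tnip1+/+ skin, and Mrgpra4, a sensory neuron gene, had 9 counts in Tnip1-/- skin and 21 in Tnip1+/+ skin and was too low to test.

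Itgam encodes the alpha M integrin chain, which pairs with the Itgb2 chain as Mac-1 and is carried by monocytes and macrophages as well as neutrophils. It stood at 203, 202 and 167 CPM in Tnip1-/- skin, against 96.6, 214 and 105 CPM in Tnip1+/+ skin. The groups overlapped, since Tnip1+/+ replicate 2 was the highest of the 6 libraries. Its log2 fold change was 0.46 (SE 0.30, adjusted p = 0.249, edgeR quasi-likelihood test). Without Tnip1+/+ replicate 2 it passed, at 0.91 (adjusted p = 0.00592), so that library decided the call. In that library the summed monocyte and macrophage markers (Csf1r, Emr1, Cd68, Mrc1, Mertk, Ccr2, Cx3cr1, Ly6c2, Cd163 and Fcgr1) were also the highest of the Tnip1+/+ group, at 1082 CPM, with 736 and 804 CPM in replicates 1 and 3. The Tnip1-/- libraries held 1476, 1237 and 1099 CPM of these markers. Mrc1 alone made up 665, 578 and 355 CPM of these sums, against 228, 272 and 251 CPM in the Tnip1+/+ libraries. Of the 10, 3 rose (Csf1r 0.31, Mrc1 1.09 and Cx3cr1 1.05) and 0 fell by edgeR at the adjusted threshold, with 2 lower at an unadjusted p under 0.05 and 0 and 1 lower by DESeq2 and limma voom. Of all tested genes, 22.3% rose by edgeR at that threshold. The 10 markers had a median log2 fold change of 0.03, and their part in the Itgam level was not tested. Its partner chain gene Itgb2 rose by 0.66. Of the other chains that pair with Itgb2, Itgal, the alpha chain of LFA-1, rose by 1.33, whereas Itgax, a marker of dendritic cells, fell by 0.53. The 3 tested genes whose centred log2 CPM over the 6 libraries was nearest to that of Itgam were Gm13139, Il2ra and Pilrb1, with root mean square differences of 0.0990, 0.121 and 0.145.

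Ngp and Ltf encode proteins of the specific granules: neutrophilic granule protein, related to the cathelicidins and cystatins, and lactoferrin, which binds iron. Ngp had 61, 29 and 16 counts in Tnip1-/- skin, against 1, 3 and 1 counts in Tnip1+/+ skin. As levels that is 2.63, 1.23 and 0.836 CPM against 0.0300, 0.102 and 0.0370 CPM. The ratio of summed counts was 28.9 with an exact 95% interval of 12.0 to 90.7, and the log2 fold change was 4.70 (SE 0.67, adjusted p = 0.00253, edgeR). It moved to 4.11 without Tnip1-/- replicate 1, the highest library, and to 5.37 without Tnip1+/+ replicate 2. Ltf had 62, 33 and 21 counts in Tnip1-/- skin, against 6, 8 and 3 counts in Tnip1+/+ skin. Both genes were thus highest in the same Tnip1-/- library and, in the Tnip1+/+ group, in replicate 2. Ltf rose by 3.16 (SE 0.49, adjusted p = 0.00337, edgeR), and the ratio of its summed counts was 9.29 (interval 5.56 to 16.5). Ngp made up 49.6%, 46.8% and 43.2% of the summed Ngp and Ltf counts in the Tnip1-/- libraries and 14.3%, 27.3% and 25.0% in the Tnip1+/+ libraries, where that sum is 4 to 11 counts.

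Retnlg encodes resistin-like gamma, a secreted protein that mouse neutrophils express strongly. Its level was 38.1, 10.5 and 7.63 CPM in Tnip1-/- skin (885, 248 and 146 counts), against 0.810, 2.07 and 0.888 CPM in Tnip1+/+ skin (27, 61 and 24 counts). The groups did not overlap, and replicate 1 alone accounted for most of the spread among the Tnip1-/- libraries. The mean was 18.8 ± 16.8 CPM in Tnip1-/- skin and 1.26 ± 0.708 CPM in Tnip1+/+ skin (SD, n = 3 each). The log2 fold change of Retnlg was 3.90, with an SE of 0.73 (adjusted p = 0.00614, edgeR), and 2.86 without Tnip1-/- replicate 1. Its relative Retnla, a gene of alternatively activated macrophages, fell by 2.09 (adjusted p = 0.0392, edgeR), and Retn, the resistin gene of fat cells, stood at -0.79 (adjusted p = 0.599). The 3 genes nearest in pattern to Retnlg were Fetub, Il24 and Lpo, at root mean square differences of 0.384, 0.390 and 0.487 over the 6 libraries. Like Retnlg, each of these had its highest level in Tnip1-/- replicate 1, which follows largely from choosing them by pattern over the same libraries.

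The promoters of the 3 granule or secreted genes are shown because each holds a match, in capitals, to TTNNGCAA or its reverse complement TTGCNNAA, a form of the site bound by C/EBP factors, which drive granule genes during neutrophil maturation. The sequences are the 250 bases before the start in RefSeq (GRCm38.p6), for Ngp at chr9:110419558-110419807, for Ltf at chr9:111019042-111019291 and for Retnlg at chr16:48872358-48872607, all on the plus strand.
Ngp: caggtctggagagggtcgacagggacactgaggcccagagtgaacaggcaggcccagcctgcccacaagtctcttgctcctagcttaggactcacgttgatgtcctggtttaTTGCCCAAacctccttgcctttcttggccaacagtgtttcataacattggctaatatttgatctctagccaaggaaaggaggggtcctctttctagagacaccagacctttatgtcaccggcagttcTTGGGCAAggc
Ltf: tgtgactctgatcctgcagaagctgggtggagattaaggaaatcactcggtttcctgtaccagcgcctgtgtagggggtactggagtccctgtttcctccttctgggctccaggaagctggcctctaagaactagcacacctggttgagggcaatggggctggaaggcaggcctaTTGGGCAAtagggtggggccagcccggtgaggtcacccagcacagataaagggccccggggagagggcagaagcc
Retnlg: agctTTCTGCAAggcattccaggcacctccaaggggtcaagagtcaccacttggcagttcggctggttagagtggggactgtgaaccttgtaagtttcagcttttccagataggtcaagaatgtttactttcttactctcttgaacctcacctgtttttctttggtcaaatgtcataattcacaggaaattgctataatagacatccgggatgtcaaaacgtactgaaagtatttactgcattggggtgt

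The matches begin 138 and 11 bases before the start in Ngp, 75 bases before it in Ltf and 246 bases before it in Retnlg. Of 32851 RefSeq promoters, 9.56% hold such a match in the same 250 bases, on either strand. The 6 surface genes had 0 matches there. For GAGGAA (reverse complement TTCCTC), a core of sites bound by ETS factors such as PU.1, matches were found in Fpr2, Trem1, Itgam and Ltf, with 23.3% of all promoters holding one. No match of one motif overlapped a match of the other in these promoters. Both motifs were chosen after the promoters had been seen, and a match is a description of the letters only.

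Surface and granule transcripts stood in a different proportion in the 2 genotypes. The summed counts of the 6 surface genes were 5.85, 17.8 and 21.8 times those of the 3 granule or secreted genes in the Tnip1-/- libraries, against 112, 96.6 and 112 times in the Tnip1+/+ libraries. The ratio was lower in every Tnip1-/- library, and lowest in replicate 1. Itgam made up 68.2% to 81.6% of the counts of all 9 genes in Tnip1-/- skin and 84.2% to 89.8% in Tnip1+/+ skin. The surface sum thus mostly follows that gene. Retnlg made up 79.4% to 87.8% of the granule or secreted counts in the 6 libraries, so that sum mostly follows Retnlg. With Itgam left out the ratio was 1.18, 2.46 and 4.28 in Tnip1-/- skin, against 16.8, 8.94 and 10.5 in Tnip1+/+ skin. The difference in the mean log2 ratio was -3.02 with all 9 genes, -2.33 without Itgam and -3.06 without Retnlg. Without Retnlg the ratio in Tnip1+/+ skin rests on few counts, 1, 3 and 1 of Ngp and 6, 8 and 3 of Ltf. Both genes were testable only through the Tnip1-/- libraries. A mean of log2 CPM over genes, with 0.1 CPM added, gives each gene the same weight and gave a smaller difference of -1.16. In it Trem1 and the Mrgpra2 pair, with log2 fold changes in the range of the granule genes, count as much as Itgam. The added 0.1 CPM exceeds the Tnip1+/+ means of Mrgpra2a, Mrgpra2b and Ngp (0.0247, 0.0540 and 0.0563 CPM), so it shrinks their differences. For single genes the proportion need not differ: Trem1 counts over Retnlg counts were 0.302, 0.766 and 0.938 in Tnip1-/- skin and 0.667, 0.311 and 0.208 in Tnip1+/+ skin, where the groups overlap. No test was made of these ratios, since the genes were chosen with earlier results known.

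**Figure D2:**
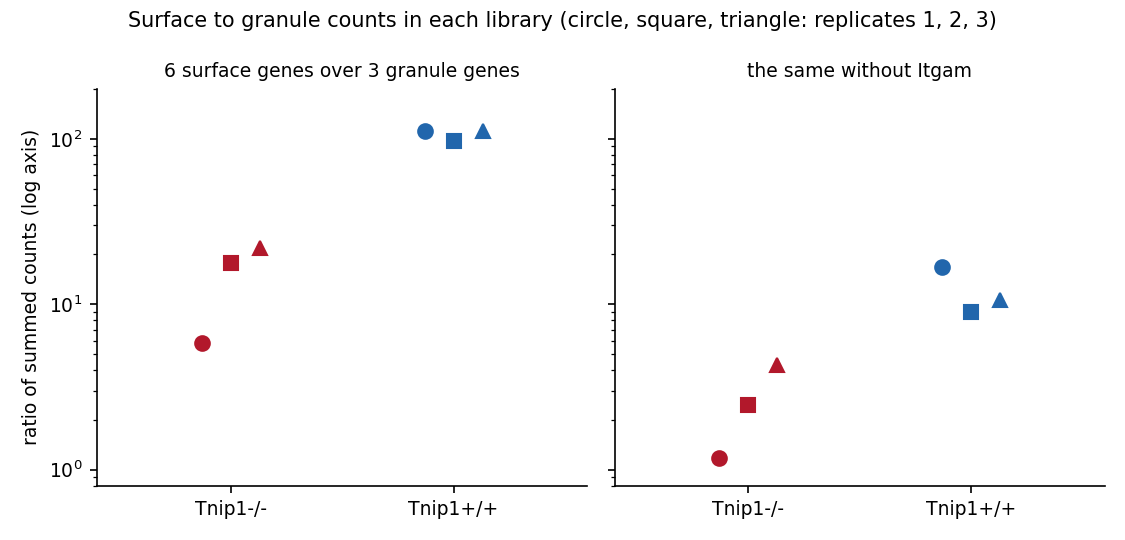
Ratio of summed counts of the surface genes to those of Ngp, Ltf and Retnlg in each library (log axis), with Itgam on the left and without it on the right; red is Tnip1-/- and blue Tnip1+/+. All Tnip1-/- libraries lie below all Tnip1+/+ libraries in both panels, at 5.85 to 21.8 against 96.6 to 112 on the left.

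**Figure D3:**
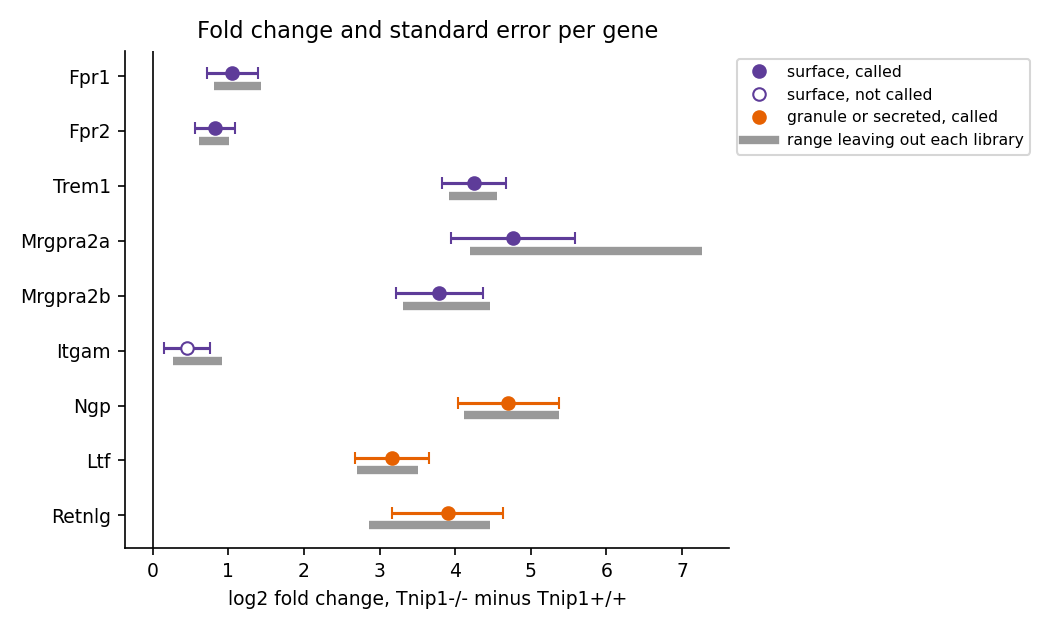
Log2 fold change of each gene, Tnip1-/- minus Tnip1+/+, with its standard error (edgeR, 3 libraries a group), and below it in grey the range when each library is left out in turn. Fpr1, Fpr2 and Itgam lie at or below 1.05, the other 6 genes lie at 3.16 or above, and only the range of Mrgpra2a reaches 7.26. That end comes from a fit with only 0 counts left in Tnip1+/+ skin and is not a measured size.

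Ptprc, the CD45 gene of white blood cells, was not called (0.29, adjusted p = 0.271, edgeR) and gives another scale for these counts. Of the 3 white blood cell markers listed, Coro1a rose by 1.14 (adjusted p = 0.00272) and Laptm5 stood at 0.17 (adjusted p = 0.527, edgeR). Whether the share of white blood cells differed between the genotypes was not tested. Retnlg had 184, 60.7 and 44.0 counts per 1000 Ptprc counts in Tnip1-/- skin, against 6.35, 10.4 and 7.01 in Tnip1+/+ skin. Trem1 had 55.6, 46.5 and 41.3 per 1000 in Tnip1-/- skin and 4.23, 3.24 and 1.46 in Tnip1+/+ skin. For Fpr1 the values were 105, 70.0 and 92.3 in Tnip1-/- skin against 54.8, 59.2 and 41.8 in Tnip1+/+ skin, with no overlap. For Fpr2 they were 78.0, 63.1 and 92.9 in Tnip1-/- skin against 75.0, 46.9 and 42.3 in Tnip1+/+ skin, so the groups overlapped on this scale. Itgam per 1000 Ptprc counts overlapped as well, at 980, 1165 and 964 against 758, 1075 and 830.

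Per kilobase of exon, Itgam and Retnlg led in Tnip1-/- skin, with mean levels of 37.9 and 31.6 CPM per kb, but the Retnlg libraries (64.3, 17.7 and 12.9) spanned those of Itgam and reached those of Fpr1. Fpr1 and Fpr2 followed at 12.6 and 11.1 CPM per kb and did not differ beyond their spread. Trem1 came next at 2.97, and Ngp, Mrgpra2b, Mrgpra2a and Ltf stood at 1.28, 0.621, 0.598 and 0.499 CPM per kb with overlapping libraries. In Tnip1+/+ skin Itgam was again the highest at 27.6 CPM per kb, Fpr2 and Fpr1 stood at 6.25 and 6.06, and Retnlg was at 2.12. There Trem1 was at 0.153 CPM per kb, and the 4 lowest genes lay between 0.0199 and 0.0544 CPM per kb, with 0 to 8 counts a library.

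Other genes of neutrophils moved in part. Of 25 further surface genes, 22 were tested, of which 14 rose and 1 fell, with a median log2 fold change of 1.57 against -0.04 over all tested genes. Of all tested genes, 22.3% were called higher and 22.7% lower. Of the 14, 3 (Cd177, Trem3 and Gpr84) passed the filter only through the Tnip1-/- libraries, so the count and median are no support on their own. Among those with the highest levels, Itgb2 rose by 0.66 and the niacin receptor gene Niacr1 by 0.60, the Fc receptor gene Fcgr3 stood at 0.68 (adjusted p = 0.0914, edgeR), and the decoy receptor gene Il1r2 was the 1 that fell, by 0.82. Il1r2 lost its call without Tnip1-/- replicate 2 or 3 or Tnip1+/+ replicate 1. The genes of the receptors that guide and sustain neutrophils, Cxcr2 (3.07) and Csf3r (2.29), rose too. The chemokine receptor gene Cxcr1 had 42 counts in Tnip1-/- skin and 3 in Tnip1+/+ skin, and Itgb2l had 25 and 2; neither reached the filter.

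Of 12 further genes of specific and gelatinase granules, 6 rose and 0 fell by edgeR, with a median of 1.12 (all tested genes: 22.3% higher, 22.7% lower). At the adjusted threshold 0 were lower by DESeq2 and by limma voom. At an unadjusted p under 0.05, 0 were lower by edgeR and by limma voom, and 1 by DESeq2. Camp and Olfm4, 2 of the 6 that rose, could be tested only through the Tnip1-/- libraries. Lyz2, the lysozyme of myeloid cells, rose by 1.15, the siderophore-binding Lcn2 by 3.40 and the chitinase-like Chi3l3 by 7.0, whereas haptoglobin, Hp, stood at 0.66 (adjusted p = 0.578), with 1 Tnip1-/- library far below the others. Keratinocytes express Lcn2 in inflamed skin and macrophages express Lyz2 and Chi3l3, so these are not particular to neutrophils. The collagenase gene Mmp8 rose by 4.84 and the cathelicidin gene Camp, with 39 counts in Tnip1-/- skin and 2 in Tnip1+/+ skin, by 4.44. Of the other genes not called, Lyz1 stood at -1.01 (adjusted p = 0.110), Mmp25 at -0.15, Lrg1 at 0.07, Mmp9 at 0.86 and Pglyrp1 at 1.10 (all edgeR).

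Primary granule genes, which are transcribed in promyelocytes, were near the limit of detection in both genotypes. Over the 3 libraries of each group, Mpo had 19 counts in Tnip1-/- skin and 6 in Tnip1+/+ skin, Elane 2 and 6, Prtn3 37 and 46, and Ctsg 17 and 14. Only Prtn3 could be tested, at 0.12 (adjusted p = 0.911, edgeR). For Elane, Prtn3 and Ctsg the exact 95% intervals of the ratio of counts, 0.0448 to 2.54, 0.690 to 1.73 and 0.767 to 3.62, included 1, and that of Mpo, 1.65 to 13.2, did not. These intervals cover counting error only, not the spread among mice. The Mpo libraries of the 2 groups overlapped all the same, since Tnip1-/- replicate 3 had 0 counts.

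**Figure D4:**
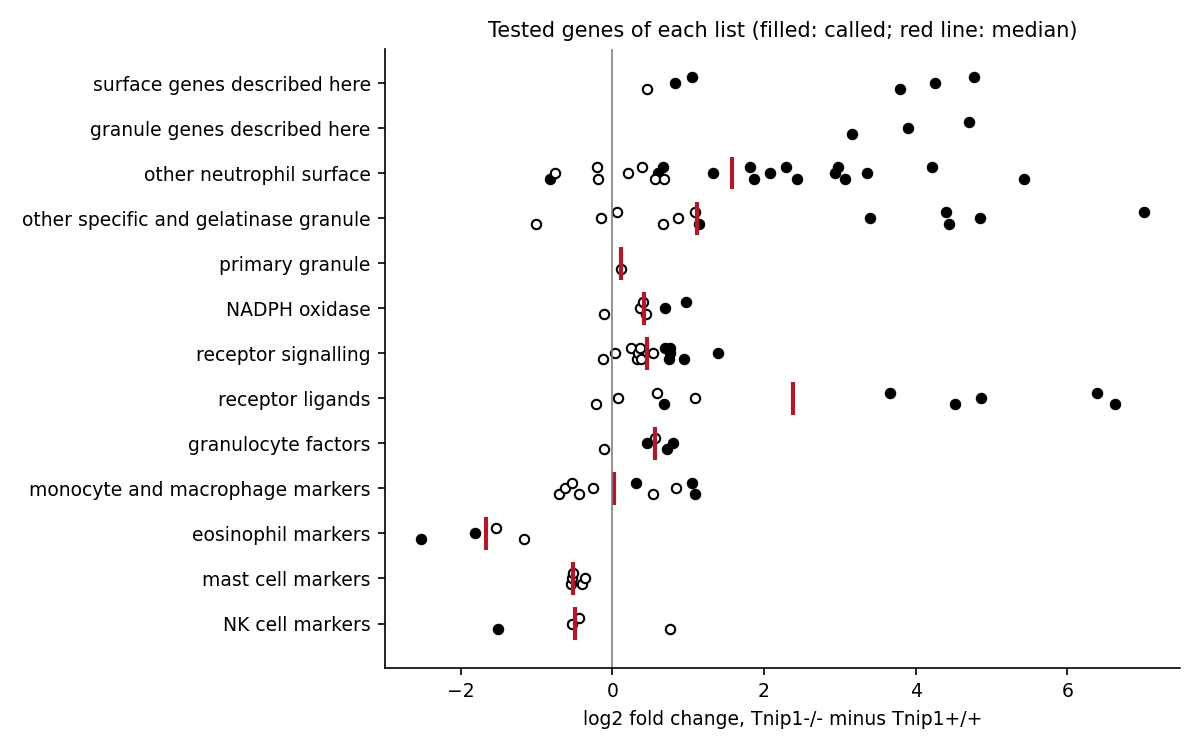
Log2 fold change, Tnip1-/- minus Tnip1+/+, of every tested gene of each list, filled where called by edgeR at an adjusted p under 0.05, with the median of each further list as a red line. The further surface genes and the ligands reach from below 0 to above 5, and the NADPH oxidase and signalling genes stay between -0.12 and 1.39.

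Genes that act downstream of these receptors were called in part. Of all tested genes, 22.3% were called higher and 22.7% lower. Of 6 genes of the NADPH oxidase, which makes superoxide, 2 rose and 0 fell, with a median of 0.42 (edgeR, also 0 lower at an unadjusted p under 0.05 and by DESeq2 and limma voom). The count is unstable: 0 rose without Tnip1-/- replicate 1 or 3 or Tnip1+/+ replicate 1 or 3, and 5 rose without Tnip1+/+ replicate 2. Of 14 signalling genes, 6 rose and 0 fell (edgeR, with 0 lower at an unadjusted p under 0.05 and by DESeq2 and limma voom), with a median of 0.45. Tyrobp, the adaptor of Trem1, rose by 0.77, and the G protein gene Gnai3 by 0.75, while Gnai2, the main partner of formyl peptide receptors in white blood cells, stood at -0.12 (adjusted p = 0.536) and Tln1, which activates integrins, at 0.34 (adjusted p = 0.104, edgeR). Among 7 transcription factors of granulocytes, Cebpa (0.46), Cebpb (0.79) and Runx1 (0.72) rose of 5 tested and 0 fell (edgeR, with 0 lower at an unadjusted p under 0.05 and by the other tools). These are also expressed by keratinocytes or other skin cells, and the number that rose was 1 without any single Tnip1-/- library and 1 with library totals alone. Cebpe, the factor most closely tied to specific granules, had 4, 4 and 1 counts in Tnip1-/- skin and 2, 11 and 7 counts in Tnip1+/+ skin and was too low to test.

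Of 10 genes for ligands of the surface receptors, 6 rose and 0 fell (edgeR, with 0 lower at an unadjusted p under 0.05 and by DESeq2 and limma voom), with a median of 2.38. The 3 defensin genes listed for the Mrgpra2 receptors were all among them. Over all tested genes, 22.3% were called higher. Defb3 rose by 6.39 (79.8 CPM in Tnip1-/- skin and 0.930 CPM in Tnip1+/+ skin), Defb4 by 6.63 (21.5 and 0.216 CPM) and Defb14 by 3.66 (48.3 and 3.81 CPM). Defb3 and Defb4 would not have passed the filter on the Tnip1+/+ libraries alone. For Fpr2, the serum amyloid gene Saa3 stood at 1209 ± 318 CPM in Tnip1-/- skin and 52.7 ± 44.6 CPM in Tnip1+/+ skin (SD, n = 3 each; 4.52), and Anxa1 rose by 0.68. Pglyrp1, which encodes a ligand of TREM1, did not pass (1.10, adjusted p = 0.252), nor did the Mac-1 ligand genes Icam1 (0.59, adjusted p = 0.0501) and C3 (0.08, adjusted p = 0.804, all edgeR).

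Markers of red cells and platelets moved with the genotype as well, and blood carries neutrophils. Of 8 such markers, 6 rose and 0 fell by edgeR, beside 22.3% of all tested genes called higher and 22.7% lower. Of the 8, 1 was testable only through the Tnip1-/- libraries, and 0 were lower at an unadjusted p under 0.05 or by DESeq2 and limma voom. The summed level of these markers was 750, 1318 and 689 CPM in Tnip1-/- skin against 339, 576 and 376 CPM in Tnip1+/+ skin. Within the Tnip1-/- group this sum was highest in replicate 2, while Trem1, Ngp, Ltf and Retnlg were highest in replicate 1. Their part in the neutrophil genes was not tested. Among eosinophil markers, another granulocyte set, the 4 tested pointed down and the 3 too low to test pointed up. Ear2 and Ccr3 were called lower (-2.52 and -1.81). Siglec5 (-1.17, adjusted p = 0.114) and Il5ra (-1.53, adjusted p = 0.0819, edgeR) were not called. The median of the 4 tested was -1.67. The summed level of all eosinophil markers, most of it Ear2 in Tnip1+/+ skin, was 5.01 to 9.62 CPM in Tnip1-/- skin against 21.2 to 36.4 CPM in Tnip1+/+ skin. The 3 markers too low to test had more counts in Tnip1-/- skin: Ear1 had 9, 8 and 12 against 5, 4 and 6 in Tnip1+/+ skin, Prg2 had 3, 8 and 3 against 1, 0 and 1, and Epx had 0, 0 and 2 against 0 in each Tnip1+/+ library. Of the mast cell markers 0 of 5 were called in either direction (edgeR, 0 at an unadjusted p under 0.05 and 0 by DESeq2 and limma voom), at 117 to 161 CPM in Tnip1-/- skin against 139 to 283 CPM in Tnip1+/+ skin. Of 4 NK cell markers Prf1 fell by 1.5, while Ncr1 (-0.44), Klrb1c (-0.53) and Gzma (0.77) were not called (edgeR). The sums of all 4 were 2.87 to 4.22 CPM in Tnip1-/- skin against 4.35 to 6.44 CPM in Tnip1+/+ skin. Prf1 alone of the 4 had groups that did not overlap. Keratinocyte markers, which bear on the ligand genes and on Lcn2, S100a8 and S100a9, were higher for Krt14, Krt5 and Krt1 and lower for Krt10, with sums of 18285 to 21321 CPM in Tnip1-/- skin against 6106 to 9982 CPM in Tnip1+/+ skin. The part of eosinophils, NK cells and keratinocytes in these results was not tested.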

How the data were processed

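The authors deposited counts, whole numbers per gene symbol in 1 file per library, from stranded, ribosome-depleted total RNA of skin, per the labels' protocols. The build was mm9 and R 3.2.3, limma, HTSeq, STAR, BWA and CASAVA 1.7 were used, per the submitters' processing notes. Their order, the strand setting and the annotation are not given in the sources used here, so reads of overlapping genes (in GENCODE M21 Fpr2 with Fpr3, Itgam with Gm49368, Mrgpra2b and Trem1 with pseudogenes) may be counted differently. The 5 summary lines of each file (26.7% to 30.3% of it) were left out.

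Counts were fitted with edgeR 4.0.16 under R 4.3.3 (TMM, filterByExpr with a minimum count of 10, quasi-likelihood, Benjamini-Hochberg over 16691 genes, called at 0.05). Log2 fold changes are Tnip1-/- minus Tnip1+/+, and SEs were derived from the F statistic. The fit was tested on simulated data. Alternatives used DESeq2 1.42.0, limma 3.58.1 (voom), other factors, filters and dispersion, a replicate block and each library left out. Ratios of few counts have exact 95% Clopper-Pearson intervals, which cover counting error only and not the spread among mice. The design text gives separate mice as replicates. Libraries within a group differed beyond sampling noise (chi-square over its degrees of freedom 32.3 to 137). Exon lengths and transcripts came from GENCODE M21 and promoters from RefSeq, both GRCm38, used with symbols only; 9 of 9 genes matched.

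The genes and lists were chosen with earlier results of these data known. Named are the 9 genes, in each list up to 4 genes of highest mean level, defining markers at 0 (Ly6g and Epx), and 3 genes nearest in pattern to the most abundant surface and granule gene (mean of at least 1 CPM, prior count 2). Gene family relatives, Cd177, Gpr84, Olfm4, Stfa2l1, Ear1, Prg2, Cxcr1, Itgb2l, Mmp8, Camp, Cx3cr1, Cebpe, Defb3, Defb4, Defb14 and Pglyrp1 were named after their values were seen. The same holds for Lyz1, Mmp9, Mmp25 and Lrg1. Single genes of the NADPH oxidase list and of the red cell and platelet list are not reported here.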

Additional observations from a re-analysis of the deposited data

How the results depend on the processing

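Under 14 alternatives, all 9 log2 fold changes kept their sign, and no gene of the set was called lower in any of them. The number called higher was 8; it was 6 to 8 with single libraries left out and 5 with the stricter filter, under which Mrgpra2a, Mrgpra2b and Ngp were no longer tested. Only Fpr1, Fpr2 and Itgam crossed the threshold. Fpr1 (0.96, adjusted p = 0.0503) and Fpr2 (0.75, adjusted p = 0.0545) also lost their calls with upper-quartile factors in edgeR. Library totals alone moved the median of all genes to -0.19, against -0.04 with TMM. The replicate number marks different mice and is not stated to pair them. Correlations of deviations were 0.01, -0.21 and 0.19 for the numbers 1, 2 and 3, and -0.29 to 0.26 between unlike numbers. So few correlations cannot decide whether the mice were paired. With the replicate number as a block, Fpr1 (1.09) and Fpr2 (0.85) were not called, and 6 genes of the set were higher. Over all genes 3323 were then higher and 3142 lower, against 3730 and 3795. The further surface genes called lower were 2 with library totals and 2 with the block, against 1, and 0 to 1 with single libraries left out. With the block 1 specific or gelatinase granule gene was lower and 0 NADPH oxidase genes were higher. NADPH oxidase genes higher were 0 to 5 and granulocyte factors higher 1 to 3 with single libraries left out, and 1 factor was higher with library totals. The mean log2 ratio of surface to granule genes differed by -1.16 with each gene weighted alike and 0.1 CPM added. It differed by -3.38 to -2.44 with single libraries left out. Depth limits Mrgpra2a, Mrgpra2b, Ngp and Ltf, whose Tnip1+/+ libraries held 0 to 8 counts.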
